A study of Mus musculus with 6 samples.

Results

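The SNARE fusion machinery and complexins were described here by 8 genes: the target membrane SNAREs Snap25 and Stx1a, the vesicle SNAREs Vamp1 and Vamp2, the disassembly factors Nsf and Napb, and the complexins Cplx1 and Cplx2. They were chosen by gene name from the deposited table, which lists 115220 transcripts of 47729 genes. The 8 genes account for 36 of those transcripts. The study compared ribosome-associated RNA of medial prefrontal cortex (mPFC) neurons that express the dopamine D2 receptor, with and without somatic knockout of the kinase gene Gsk3b. All mice were adult males on a C57BL/6 background, aged 2.5 to 3 months, of the line D2Cre/LSL-Flag-Cas9/RiboTag. In these animals Cre, driven by the D2 transgene, switches on both the nuclease Cas9 and a hemagglutinin-tagged ribosomal protein, Rpl22, whose immunoprecipitation recovers RNA bound to ribosomes of the Cre-expressing cells. The 3 Ctrl libraries came from mice injected with AAV GFP, and the 3 libraries of Gsk3sKO in mPFC D2 (Gsk3sKO below) from mice injected with AAV Gsk3 sgRNA/GFP; the injected tissue was taken 3 weeks later. Cas9, Cre and the tagged ribosome were therefore present in both groups, and only the guide RNA differed by design.

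Synaptic vesicles fuse with the plasma membrane when a SNARE protein on the vesicle, synaptobrevin (Vamp1 or Vamp2), zips into a helical bundle with syntaxin 1 (such as that encoded by Stx1a) and SNAP-25 on the target membrane. Complexins bind the assembled bundle, and both restrain spontaneous fusion and support calcium-triggered release. After fusion the ATPase NSF, recruited by soluble NSF attachment proteins such as that encoded by Napb, pulls the spent bundle apart so that its parts can be used again.

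The SNAP-25 protein exists in forms a and b, which use alternative copies of exon 5. The copies are shown because the Snap25 transcripts measured here are separated by them, and because the choice of copy moves a cysteine that anchors the protein to the membrane. On GRCm38, with GENCODE M21 models, exon 5 of Snap25-201 lies at chr2:136770057-136770174 and that of Snap25-202 at chr2:136769743-136769860, both on the plus strand. Each is 118 bases long. The capitals mark the 31 bases that differ.
Snap25-201: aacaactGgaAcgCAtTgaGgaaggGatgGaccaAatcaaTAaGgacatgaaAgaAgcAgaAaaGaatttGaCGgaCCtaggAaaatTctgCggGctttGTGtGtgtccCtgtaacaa
Snap25-202: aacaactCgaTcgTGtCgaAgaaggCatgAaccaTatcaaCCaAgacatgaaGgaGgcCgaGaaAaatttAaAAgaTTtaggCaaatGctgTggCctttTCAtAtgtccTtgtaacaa
The copies were identical at 73.7% of their bases. The proteins, of 206 residues each, differed at 9 residues between positions 58 and 89. The exon of Snap25-201 places cysteines at residues 85, 88, 90 and 92, the pattern of SNAP-25b. The exon of Snap25-202 places them at residues 84, 85, 90 and 92, the pattern of SNAP-25a.

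Vamp1 also has alternative coding ends, shown because nearly all Vamp1 signal fell on the first of them. Both coding ends start at chr6:125219586 on the plus strand, and share 52 bases of exon 4. The capitals mark the bases after the shared stretch, with the stop codon.
Vamp1-201: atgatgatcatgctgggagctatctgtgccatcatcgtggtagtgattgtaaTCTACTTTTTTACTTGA
Vamp1-203: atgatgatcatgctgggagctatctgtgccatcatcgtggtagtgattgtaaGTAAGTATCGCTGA
The end of Vamp1-201 is spliced to a further exon and stops at chr6:125220066, giving a protein of 118 residues. That of Vamp1-203 reads on without splicing to chr6:125219651 and gives 117 residues.

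The transcripts of Cplx1 are separated by the start of the coding sequence. The coding part of exon 2 of Cplx1-201 lies at chr5:108548506-108548536 on the minus strand and has 31 bases. The capitals mark the 26 bases that are absent from Cplx1-202, a minor transcript whose groups did not overlap.
Cplx1-201: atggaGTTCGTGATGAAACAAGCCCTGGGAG

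The libraries had between 40787 and 55841 transcripts above 0. Levels were deposited as FPKM (fragments per kilobase of transcript, scaled to the fragments mapped in the library), and the spacing of the low values placed the depth at roughly 23.5 to 45.5 M fragments (M, 1e6 fragments). The targeted gene, Gsk3b, had totals of 35.6, 53.8 and 56.5 FPKM in Ctrl and 36.9, 37.0 and 33.6 FPKM in Gsk3sKO (log2 fold change -0.40, SE 0.189, limma unadjusted p = 0.0648, adjusted p = 0.773). Without Ctrl replicate 1 the difference was -0.61 with an unadjusted p of 0.00279, while leaving out any of the other libraries gave -0.28 to -0.43 and unadjusted p-values of 0.102 to 0.207. RNA level alone does not show whether a guide has cut a coding exon. Drd2, the gene that defines the labelled cells, ranged from 1.58 to 14.1 FPKM in Ctrl, lowest in replicate 1, and from 5.96 to 8.32 FPKM in Gsk3sKO. Sums over 6 general neuronal markers were 1134 to 1187 FPKM in Ctrl and 1146 to 1267 FPKM in Gsk3sKO. Excitatory neuron sums (4 genes) were 370 to 408 and 358 to 392 FPKM. Inhibitory neuron sums (6 genes) were 990 to 1318 and 935 to 1029 FPKM, of which Sst averaged 758 FPKM over all libraries. Markers of other cells were also measured in every library, with oligodendrocyte sums of 113 to 174 FPKM in Ctrl and 126 to 158 FPKM in Gsk3sKO, and astrocyte sums of 145 to 177 and 144 to 193 FPKM. Microglial sums were 25.5 to 32.3 and 23.1 to 31.2 FPKM, and endothelial sums 16.9 to 64.2 and 21.7 to 59.6 FPKM. Of the single markers, 3 of 6 oligodendrocyte genes (Mog, Mag and Cldn11), 1 of 5 tested microglial genes (C1qa) and the excitatory neuron gene Tbr1 were lower in Gsk3sKO at an unadjusted p under 0.05. Their part in the values below was not tested.

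No total of the 8 genes passed the test for a difference between Ctrl and Gsk3sKO. Each gene total is the sum of FPKM over the listed transcripts of a gene, and log2 fold changes are differences of mean log2(FPKM + 1), Gsk3sKO minus Ctrl. By limma, 0 of 8 passed an unadjusted p of 0.05, beside 6.56% of the 12874 gene totals tested, and the smallest adjusted p was 0.824. All 8 passed the filter of a mean of at least 1 FPKM. A mean difference above 0 was found for 5 genes and below 0 for 3, with folds between 0.867 for Stx1a and 1.14 for Vamp2. The median log2 fold change was 0.07, beside -0.06 over all gene totals tested. With 3 libraries a group, the 95% intervals of the folds reached from 0.548 to 1.52 over the 8 genes, and from 0.684 to 1.39 with Vamp1 set aside. The median SE of the 8 was 0.148, against 0.251 over all gene totals, and 7.37% of all gene totals had an SE below that median. In such pooled RNA, fewer cells of a type and less RNA per cell cannot be told apart.

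**Figure D1:**
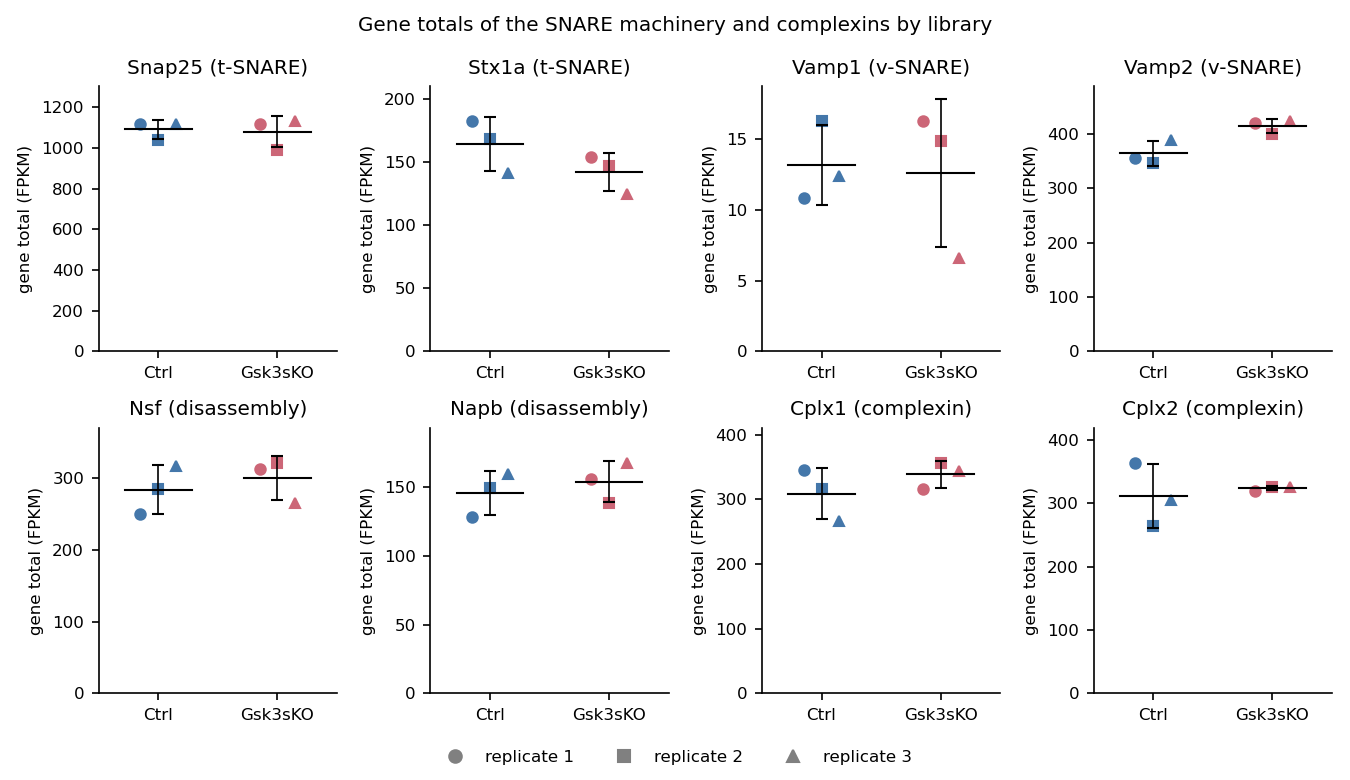
Gene totals in FPKM (linear axes from 0) for each of the 8 genes in the 3 Ctrl and 3 Gsk3sKO libraries; symbols are libraries, the horizontal line is the group mean and the bar is ± SD. Vamp2 is the only gene whose groups do not overlap, and Vamp1 has the widest relative spread.

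Snap25 (ENSMUSG00000027273, chr2:136713453-136782428, plus strand), which contributes more of the SNARE bundle's helices than any partner, was the most abundant of the 8. Its totals were 1118, 1038 and 1117 FPKM in Ctrl and 1116, 991.2 and 1134 FPKM in Gsk3sKO. The groups overlapped, and replicate 2 was the lowest library of each. The means were 1091 ± 45.8 and 1080 ± 77.6 FPKM (SD, n = 3 each), a log2 fold change of -0.02 (SE 0.147, adjusted p = 0.991 by limma). Among 21690 genes with a protein-coding transcript, Snap25 ranked 6 by mean level.

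Most of this signal was SNAP-25b. Snap25-201 stood at 980.3, 910.9 and 969.7 FPKM in Ctrl and 986.3, 868.8 and 1028 FPKM in Gsk3sKO, and its share of the gene total was 87.4% ± 0.515 against 88.9% ± 1.59 (SD, n = 3 each, exact permutation p = 0.3, adjusted p = 0.72 over 6 genes, 2-sided). Snap25-202, which holds the SNAP-25a exon, stood at 129.0, 121.6 and 142.2 FPKM in Ctrl and 125.7, 121.4 and 100.9 FPKM in Gsk3sKO. Replicate 3 of Gsk3sKO was the lowest library, and the groups overlapped (log2 fold change -0.18, SE 0.136, limma adjusted p = 0.89, and -0.08 without that library). In that library Snap25-201 exceeded Snap25-202 by 10.2 to 1, while the ratio in the other libraries lay between 6.82 and 7.85. The models of these transcripts also differ outside exon 5, since Snap25-201 is 2116 and Snap25-202 1014 bases long, so their division does not rest on the exon sequences alone.

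The remaining transcript of the gene, Snap25-203, is annotated as a retained intron and ends in an exon of 4599 bases (chr2:136758311-136762909). It was at 9.03, 6.05 and 5.34 FPKM in Ctrl libraries and 4.21, 0.984 and 4.69 FPKM in Gsk3sKO. All 3 Gsk3sKO libraries lay below all Ctrl libraries, replicate 2 by far the lowest, with an estimated 138 fragments. The log2 fold change of -0.98 (SE 0.481) did not pass the test (limma unadjusted p = 0.0863, adjusted p = 0.842), and without Gsk3sKO replicate 2 it was -0.49 (limma unadjusted p = 0.19). Snap25-203 made up 0.622% ± 0.169 of the gene total in Ctrl and 0.297% ± 0.172 in Gsk3sKO (SD, n = 3 each).

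Stx1a (ENSMUSG00000007207, chr5:135023482-135051100, plus strand) encodes syntaxin 1A, the plasma membrane anchor of the bundle. Its totals were 183.0, 168.8 and 141.4 FPKM in Ctrl and 154.2, 147.2 and 125.1 FPKM in Gsk3sKO. The lowest Ctrl library lay within the Gsk3sKO range. The means of 164 ± 21.1 and 142 ± 15.2 FPKM (SD, n = 3 each) gave the lowest fold of the 8, 0.867 (log2 fold change -0.21, SE 0.149, limma adjusted p = 0.845). Its coding transcript Stx1a-201, of 10 exons, was at 134.0, 132.3 and 119.5 FPKM in Ctrl and 124.9, 112.4 and 113.0 FPKM in Gsk3sKO (log2 fold change -0.14, SE 0.114, limma adjusted p = 0.89).

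Next in level to Stx1a-201 was Stx1a-202, a processed transcript with no annotated coding sequence, whose last exon (chr5:135048711-135048830, 120 bases) does not overlap Stx1a-201. It was at 38.5, 27.9 and 16.6 FPKM in Ctrl and 22.8, 25.5 and 7.62 FPKM in Gsk3sKO, with replicate 3 the lowest of each group. Its CV within the groups was far above that of Stx1a-201, at 39.6% and 51.7% against 6.19% and 6.01%. In FPKM the SDs were closer, at 10.9 in Ctrl and 9.64 in Gsk3sKO against 7.95 and 7.02 for Stx1a-201. Both transcripts thus took part in the spread of the total. The log2 fold change of Stx1a-202, -0.63 (SE 0.511, limma adjusted p = 0.89), did not pass the test. It was -0.11 without Gsk3sKO replicate 3 and -0.36 without Ctrl replicate 1. The share of Stx1a-201 in the gene total ranged from 73.3% to 84.5% in Ctrl and from 76.4% to 90.3% in Gsk3sKO (exact permutation p = 0.6, adjusted p = 0.72, 2-sided).

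Among the vesicle SNAREs, Vamp2 (ENSMUSG00000020894, chr11:69088490-69092384, plus strand), the main synaptobrevin of forebrain synapses, was the only gene of the 8 whose groups did not overlap. Its totals were 356.7, 346.4 and 389.8 FPKM in Ctrl and 420.0, 399.2 and 424.6 FPKM in Gsk3sKO. The gap was narrow, between Ctrl replicate 3 and Gsk3sKO replicate 2. Means of 364 ± 22.7 and 415 ± 13.5 FPKM (SD, n = 3 each) gave a fold of 1.14 with an interval of 0.933 to 1.39 (log2 fold change 0.19, SE 0.126, limma unadjusted p = 0.173, adjusted p = 0.824). The exact permutation test gave p = 0.1, the smallest that 3 against 3 libraries allow. Over all gene totals tested, the groups did not overlap for 3.71% with Gsk3sKO the higher and for 8.3% with Gsk3sKO the lower, and among the 8 genes for 1 and 0. Vamp2-201 carried 99.6% of the total in both groups, and showed the same pattern at 355.5, 344.8 and 387.9 FPKM against 417.6, 397.5 and 423.4 FPKM (log2 fold change 0.19, SE 0.104, limma adjusted p = 0.857).

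Vamp1 (ENSMUSG00000030337, chr6:125215551-125245964, plus strand), the synaptobrevin best known from spinal cord and brainstem, was the least abundant and the most variable of the 8. Its totals were 10.8, 16.3 and 12.4 FPKM in Ctrl and 16.3, 14.9 and 6.61 FPKM in Gsk3sKO. Replicate 3 of Gsk3sKO was the lowest library and the other Gsk3sKO libraries were within the Ctrl range. The CV was 21.4% in Ctrl and 41.5% in Gsk3sKO, and the log2 fold change of -0.13 (SE 0.322, limma adjusted p = 0.955) became 0.24 when Gsk3sKO replicate 3 was left out and 0.02 when Ctrl replicate 2 was left out. Vamp1-201, at a mean of 12.5 FPKM over the 6 libraries, accounted for nearly all of the total, while Vamp1-203, with the unspliced coding end shown above, averaged 0.0933 FPKM. Roughly 530 fragments or more lay behind each value of Vamp1-201.

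Neither disassembly factor passed the test between the groups. Nsf (ENSMUSG00000034187, chr11:103821782-103954056, minus strand), the ATPase, was at 249.5, 285.1 and 317.0 FPKM in Ctrl libraries and 312.6, 321.3 and 264.7 FPKM in Gsk3sKO. The groups overlapped over most of their range (means 284 ± 33.8 and 299.5 ± 30.5 FPKM, SD, n = 3 each; log2 fold change 0.08, SE 0.148, limma adjusted p = 0.941). Of its 10 listed transcripts Nsf-202, of 21 exons and 744 codons, held 99.3% of the total in Ctrl and 99.5% in Gsk3sKO.

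Napb (ENSMUSG00000027438, chr2:148693985-148732467, minus strand) encodes beta-SNAP, the brain-enriched adaptor that brings NSF to the bundle. It was at 128.0, 149.2 and 159.7 FPKM in Ctrl libraries and 155.8, 138.5 and 167.9 FPKM in Gsk3sKO. Both groups spanned nearly the same levels (means 146 ± 16.1 and 154 ± 14.8 FPKM, SD, n = 3 each; log2 fold change 0.08, SE 0.141, limma adjusted p = 0.935). Napb-201 held 95.9% and 96.8% of the total, and most of the rest was Napb-202, annotated for nonsense-mediated decay, at 3.50 to 6.80 FPKM.

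The complexins stood at almost equal levels. Cplx1 (ENSMUSG00000033615, chr5:108518554-108550024, minus strand), the complexin more typical of inhibitory cortical neurons, was at 344.6, 315.3 and 265.9 FPKM in Ctrl libraries and 315.8, 356.7 and 343.5 FPKM in Gsk3sKO. The groups overlapped, with Ctrl replicate 3 the lowest library (means 309 ± 39.8 and 339 ± 20.9 FPKM, SD, n = 3 each; log2 fold change 0.14, SE 0.144, limma adjusted p = 0.886).

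Cplx2 (ENSMUSG00000025867, chr13:54371349-54383917, plus strand), the form more typical of excitatory neurons, was at 364.1, 263.5 and 305.7 FPKM in Ctrl libraries and 319.8, 324.9 and 325.8 FPKM in Gsk3sKO. The Gsk3sKO libraries lay within the Ctrl range and spread far less, with SDs of 3.22 against 50.5 FPKM (n = 3 each; log2 fold change 0.07, SE 0.149, limma adjusted p = 0.946). A single transcript was listed for Cplx2, so that its total and Cplx2-201 are the same values.

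The short Cplx1-202, which lacks the 26 bases capitalised above, was at 1.81, 2.17 and 2.22 FPKM in Ctrl libraries and 0.629, 1.10 and 0.708 FPKM in Gsk3sKO. The highest Gsk3sKO value was below the lowest Ctrl value, but an estimated 9 to 36 fragments lay behind each value. The log2 fold change was -0.77 (SE 0.362, limma unadjusted p = 0.0769, adjusted p = 0.842), and the unadjusted p fell to 0.0416 with no filter on low values and to 0.0164 by limma without a trend. It was 0.154 with the replicate block and 0.0919 to 0.182 when single libraries were left out. The share of Cplx1-201 moved from 99.3% ± 0.156 to 99.8% ± 0.0615 (SD, n = 3 each), without overlap, and its exact permutation p of 0.1 (adjusted p = 0.6, 2-sided) was the smallest the design allows. Only 2 transcripts of Cplx1 were listed, so this share is the complement of that of Cplx1-202. It rests on the same few fragments and is not a separate result.

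**Figure D2:**
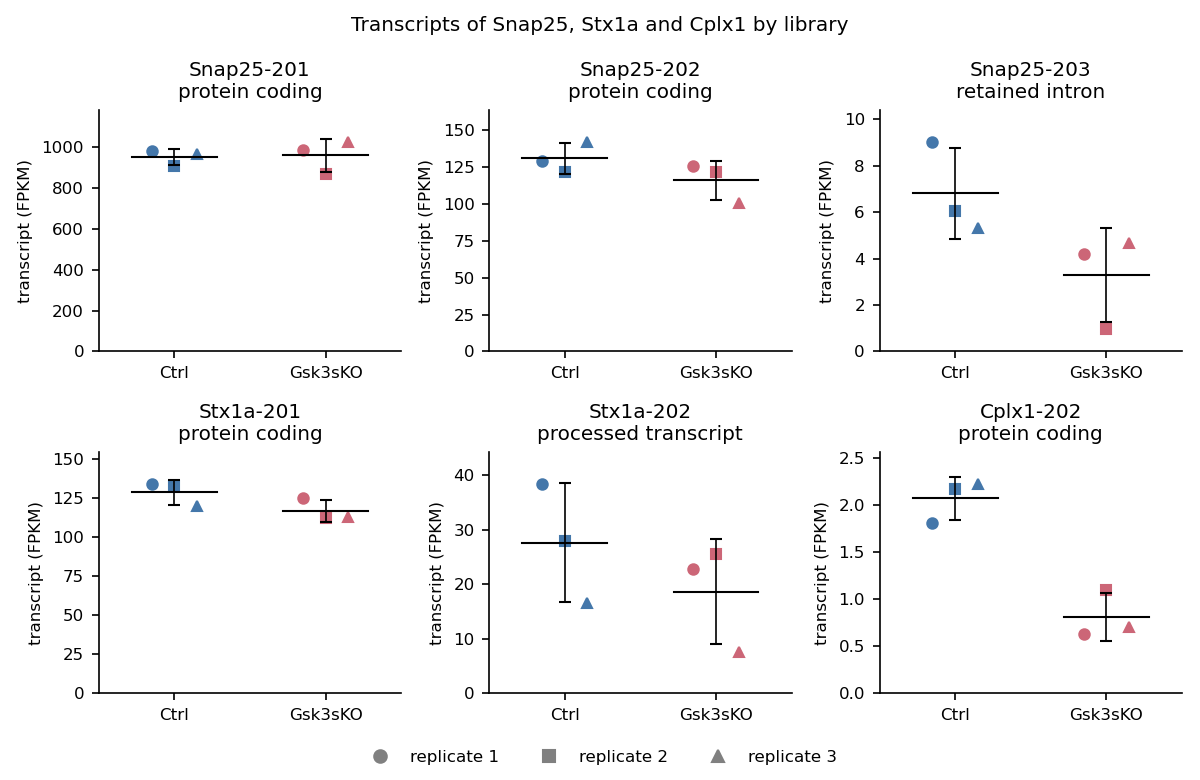
Levels in FPKM (linear axes from 0) of 6 transcripts of Snap25, Stx1a and Cplx1 in the 3 Ctrl and 3 Gsk3sKO libraries; symbols are libraries, the line is the group mean and the bar is ± SD. Snap25-203 and Cplx1-202 do not overlap between groups, and both are at the low end of the levels shown.

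Over all 36 transcripts of the 8 genes, 16 had a mean of at least 1 FPKM and were tested, 18 lay below that level and 2 of Vamp1 were listed at 0 in every library. Of the 16, 0 passed an unadjusted p of 0.05 by limma, beside 5.56% of the 21584 transcripts tested, and 1 did so by limma without a trend. A mean difference above 0 was found for 6 and below 0 for 10, and the median log2 fold change was -0.07 beside -0.06 over all transcripts tested. The groups of 3 transcripts did not overlap, beside 11.2% of all those tested. Of the 3, Vamp2-201 was higher in Gsk3sKO, and Snap25-203 and Cplx1-202 were lower. Of all transcripts tested, 6.96% had groups that did not overlap with Gsk3sKO the lower.

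The order of the gene totals by level, which compares values per length of transcript, was Snap25, Vamp2, Cplx1, Cplx2, Nsf, Stx1a, Napb and Vamp1. The steps that stood clear of the spread over the 6 libraries were Snap25 (at least 991.2 FPKM) above Vamp2 (at most 424.6 FPKM), Nsf (at least 249.5 FPKM) above Stx1a (at most 183.0 FPKM), and Napb (at least 128.0 FPKM) above Vamp1 (at most 16.3 FPKM). The ranges of Vamp2 and Cplx1 overlapped, although Vamp2 was the higher in 6 of 6 libraries. The neighbours Cplx1 and Cplx2, Cplx2 and Nsf, and Stx1a and Napb could not be ordered, since the first of each pair was higher in only 3, 4 and 3 of 6 libraries.

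Ratios between related genes within a library do not depend on how libraries are scaled, and none of the 3 given here passed the test between the groups. Vamp2 exceeded Vamp1 by a geometric mean of 31.5-fold over the 6 libraries, with a log2 ratio of Vamp1 to Vamp2 of -4.81 ± 0.348 in Ctrl and -5.15 ± 0.744 in Gsk3sKO (SD, n = 3 each, exact permutation p = 0.7). The difference of -0.34 became 0.09 without Gsk3sKO replicate 3 and -0.14 without Ctrl replicate 2. Cplx1 and Cplx2 stood at 1.02 to 1, with log2 ratios of -0.01 ± 0.239 and 0.06 ± 0.0771 (exact permutation p = 0.6). The difference of 0.07 became -0.03 without Ctrl replicate 3 and 0.20 without Ctrl replicate 2. Napb exceeded Napa, which encodes the widely expressed alpha-SNAP, by 2.62-fold (difference of log2 ratios 0.20, exact permutation p = 0.5), a difference that was 0.02 without Gsk3sKO replicate 3 and 0.06 without Ctrl replicate 1. All 3 exact permutation tests were 2-sided, with adjusted p = 0.7 for each, and p = 0.1 was the smallest they could give.

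**Figure D3:**
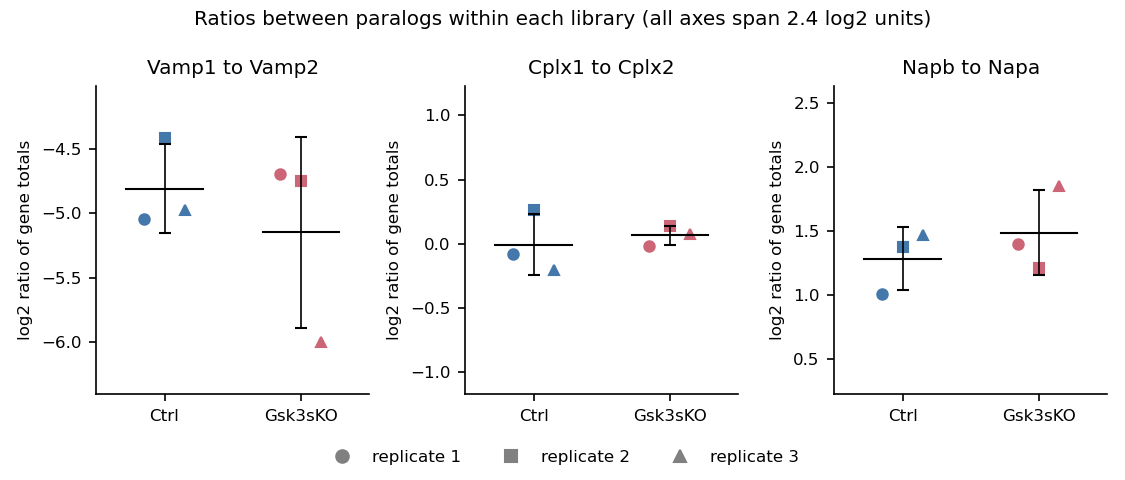
Log2 ratios of gene totals for 3 pairs of related genes in each library (each axis spans the same range of log2 units but is centred on its pair); symbols are libraries, the line is the group mean and the bar is ± SD. The groups overlap for every pair, and Vamp1 to Vamp2 is lowest in Gsk3sKO replicate 3.

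The paralogs are alike in sequence, but the exact stretches shared by their transcripts were short. Coding sequences of Vamp1 and Vamp2 were identical at 75.0% of aligned bases. The longest exact run shared by their whole main coding transcripts, untranslated parts included, was 18 bases. The values were 79.6% and 32 bases for Cplx1 and Cplx2, and 75.5% and 26 bases for Napb and Napa. Their proteins were identical at 78.7%, 84.3% and 82.9% of residues, in the same order of pairs.

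Around the 8 genes, 75 further genes of the pathway were listed, of which 70 could be tested as gene totals. Stx10 and Tsnare1 were not found by name in the table, and Vamp5, Cplx4 and Unc13d had means under 1 FPKM. By limma at an unadjusted p of 0.05, 0 of 70 rose and 3 fell in Gsk3sKO, beside 1.36% and 5.2% of all gene totals in those directions. Calls over all gene totals were 175 higher and 669 lower, a split that became 307 and 502 when each library was rescaled to a median ratio. With that rescaling 3 pathway genes again passed, but not the same 3. Stx6 and Snph, described below, no longer did (limma unadjusted p = 0.0872 and 0.0658). The groups did not overlap for 8 of the 70, of which 2 were higher and 6 lower in Gsk3sKO, beside the 3.71% and 8.3% of all gene totals given above. The median log2 fold change of the 70 was -0.01.

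The vesicle membrane list, of proteins carried on synaptic vesicles, had 1 of 16 genes lower. Syn2 encodes synapsin II, which tethers vesicles in the reserve pool. It was at 121.2, 127.7 and 135.1 FPKM in Ctrl libraries and 97.5, 83.4 and 85.6 FPKM in Gsk3sKO, without overlap. It fell by 0.52 on the log2 scale (SE 0.126, limma unadjusted p = 0.00288, adjusted p = 0.488), and stayed below an unadjusted p of 0.05 in every alternative run. The 2 most abundant genes of the list, the vesicle protein gene Syp and the vesicle GTPase gene Rab3a, averaged 529.7 and 312 FPKM, with log2 fold changes of 0.02 and 0.12 (SE 0.127 and 0.157).

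Of 29 other SNAREs tested, 1 was lower. Stx6, a syntaxin of the trans-Golgi and endosomes, was at 20.9, 17.8 and 21.4 FPKM in Ctrl libraries and 15.7, 13.4 and 16.3 FPKM in Gsk3sKO, and fell by 0.38 (log2, SE 0.160, limma unadjusted p = 0.0441, adjusted p = 0.75). Stx6 no longer passed in several alternatives. Its unadjusted p by limma was 0.0614 with the replicate block, 0.0626 without a trend and 0.0872 with median ratio rescaling. It still passed with the other pseudocount, with the other filters and over protein-coding transcripts only. Without Ctrl replicate 1, Ctrl replicate 3, Gsk3sKO replicate 1 or Gsk3sKO replicate 2, its log2 fold change was -0.35, -0.33, -0.41 or -0.30 and did not pass. Snap47, among the most abundant of the other SNAREs, had a mean of 163.5 FPKM and a log2 fold change of -0.11 (SE 0.126).

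Of 22 SNARE regulators tested, 1 was lower. Snph encodes syntaphilin, which binds syntaxin 1 and docks axonal mitochondria, and was at 57.7, 61.7 and 55.1 FPKM in Ctrl libraries and 27.0, 59.7 and 29.1 FPKM in Gsk3sKO. Gsk3sKO replicate 2 lay within the Ctrl range, and the difference (fell by 0.67, log2, SE 0.276, limma unadjusted p = 0.04, adjusted p = 0.75) came from replicates 1 and 3. Leaving out any library other than Gsk3sKO replicate 2 raised its p above the threshold, with log2 fold changes between -0.47 and -0.71, and without that library the value was -1.02 (unadjusted p = 0.000238 by limma). The call was also lost in other fits, where the unadjusted p by limma was 0.0711 with no filter on low values, 0.0669 without a trend, 0.0658 with median ratio rescaling and 0.0541 over protein-coding transcripts only. It was kept with the replicate block (limma unadjusted p = 0.0241). The other pseudocount and the filter at 5 FPKM also kept it (limma unadjusted p = 0.0415 for each). Nsg2, a neuronal endosomal protein gene and among the most abundant of the regulators, had a mean of 287 FPKM (log2 fold change 0.01, SE 0.130). No call was made among the other disassembly factors and complexins, where Napg and Napa, at means of 63.6 and 57.3 FPKM, had log2 fold changes of -0.01 and -0.12 (SE 0.140 and 0.145).

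**Figure D4:**
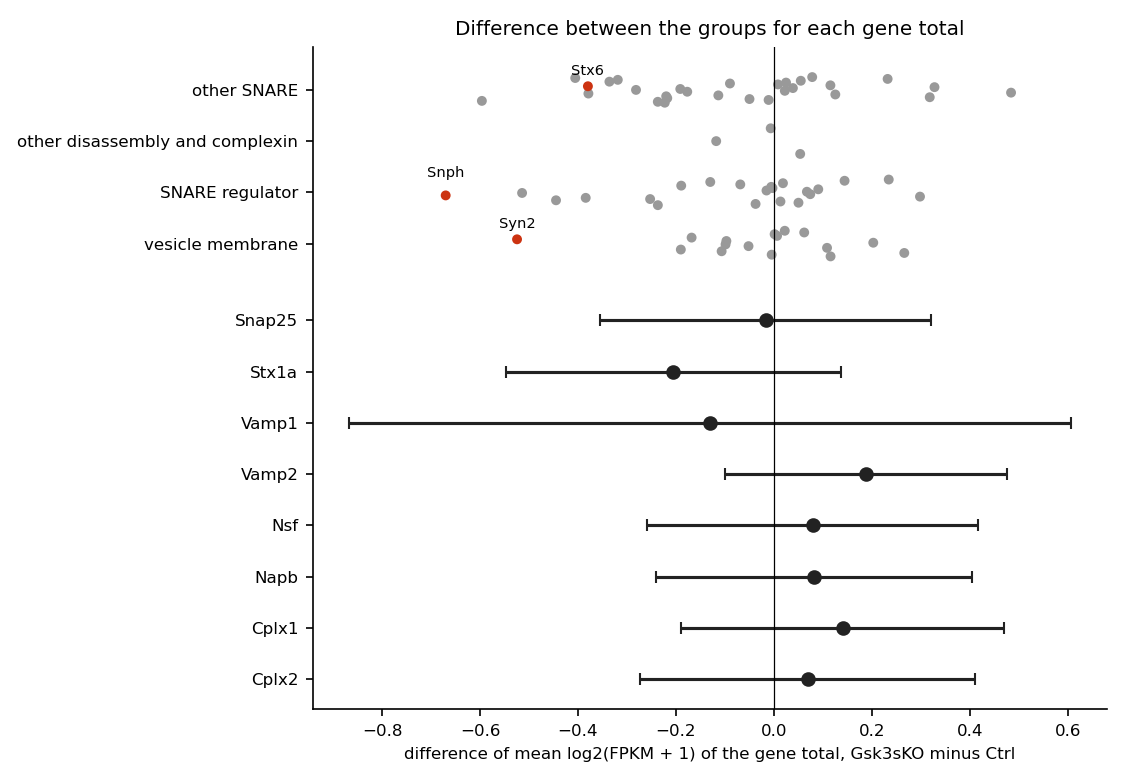
Difference of mean log2(FPKM + 1) between Gsk3sKO and Ctrl (x axis): black points are the 8 genes with bars for the 95% interval by limma, small points are single genes of the pathway lists, spread vertically for legibility, and red points passed an unadjusted p of 0.05. All 8 intervals include 0, and the red points Stx6, Snph and Syn2 lie below 0.

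As a description of how the 8 genes moved over single libraries, their centred log2(FPKM + 1) values were averaged into a profile. It spanned only 0.178 log2 units, from its lowest value in Gsk3sKO replicate 3 to its highest in Gsk3sKO replicate 1, and Vamp1, with the widest spread, weighed most in it. The gene totals most like it over the 6 libraries were Dph6 (Pearson r 0.989), Ftsj1 (0.985), Fbll1 (0.983), Pnpla8 (0.979) and Elf2 (0.978), picked as the 5 highest among all those tested. All libraries of a pair of genes share their depth and scaling.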

How the data were processed

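Ribosome-associated RNA was isolated by RiboTag immunoprecipitation and sequenced from stranded total RNA libraries (3 Ctrl, 3 Gsk3sKO). Per the submitters' processing notes, the authors used HISAT2 2.1.0, SAMtools 1.9 and StringTie 1.3.4d with GRCm38; the annotation release was not given in the sources used here. The authors deposited FPKM values per transcript and library, which are StringTie estimates normalised to length and library total. The fold, p-value and q-value columns of the authors' own comparison were not used.

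Of the transcript identifiers, 114237 matched GENCODE M21 and 983 did not. FPKM was summed by gene identifier. Rows with a mean of at least 1 FPKM were tested with limma 3.58.1 (R 4.3.3, eBayes with trend) on log2(FPKM + 1), a scale that understates changes of low genes. Calls used an unadjusted p of 0.05, 2-sided, and Benjamini-Hochberg adjusted p-values covered all rows tested. Shares and ratios were compared by exact permutation tests. Named genes were all 8 genes, the main transcript of each and any at unadjusted p under 0.05, and, from the pathway lists, those at that threshold and the 2 most abundant of each list; some results for these genes are not reported here. Further transcripts (Snap25-202, Snap25-203, Stx1a-202, Vamp1-203, Napb-202 and Cplx1-202) and the 5 most alike gene totals were added as description, the transcripts after their values were seen. The members and lists were chosen with earlier results of these data known. Depth was approximated from the spacing of low FPKM values, of which 4.48% to 23.0% per library lay within 0.01 of whole reads, so fragment numbers are rough, most so for Ctrl replicate 1, and cover counting error only. The labels do not say whether libraries came from separate animals, so the spread between libraries may be technical. The limma SEs, intervals and p-values rest only in part on a gene's own libraries, since limma draws each spread towards that of rows at a similar level. Snap25 (CV 4.2% in Ctrl and 7.19% in Gsk3sKO) and Cplx2 (16.2% and 0.996%) thus had SEs of 0.1475 and 0.1495. The scripts were tested on simulated data. Alternatives were another pseudocount, other filters, median ratio rescaling, a replicate block, limma without a trend, protein-coding transcripts only, and leaving out each library.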

Additional observations from a re-analysis of the deposited data

How the results depend on the processing

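Over 13 alternatives no total of the 8 genes reached an unadjusted p of 0.05 by limma. The smallest were 0.0836 for Stx1a and 0.0897 for Vamp2. A test on each gene's own spread alone was not run. The limma step that shares spread over all rows tested was kept in each of the 13 alternatives. Stx1a stayed below 0 and Vamp2 and Cplx1 above 0 in all of them, but leaving out each library moved Stx1a between -0.31 (without Ctrl replicate 3) and -0.12 (without Gsk3sKO replicate 3), Cplx1 between 0.04 (without Ctrl replicate 3) and 0.22 (without Ctrl replicate 1), and Vamp2 between 0.15 and 0.24. Snap25 turned to 0.0492 under median ratio rescaling. Leaving out each library moved the log2 fold change of Snap25 between -0.0523 and 0.0444, Vamp1 between -0.35 and 0.24, Nsf between -0.0104 and 0.17, Napb between -0.0074 and 0.16, and Cplx2 between -0.0443 and 0.19. The same moved the log2 ratio differences of Vamp1 to Vamp2 between -0.5657 and 0.0916 and of Cplx1 to Cplx2 between -0.0255 and 0.2047. It moved the share differences of Stx1a-201 between -0.0302 and 6.94 percentage points and of Vamp2-201 between -0.0628 and 0.0655. Among transcripts of the 8 genes, 1 was called with no filter and 1 by limma without a trend, Cplx1-202 both times. Over all transcripts 1200 were called, against 1917 with no filter and 590 at a mean of at least 5 FPKM, where fewer rows were tested. The labels do not say whether same-numbered libraries form pairs. Deviations of same-numbered libraries from their group means correlated at -0.0274, -0.0108 and -0.0809. These values showed no shared signal, but cannot settle whether the libraries were handled in pairs. With the replicate block, 821 gene totals were called in place of 844, 0 of the 8, and 2 of the 70 pathway genes in place of 3.

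With 3 libraries a group, differences of the size of the intervals given cannot be told from 0, and exact tests cannot go below p = 0.1. Values of minor transcripts rest on few fragments and on how StringTie divided reads among overlapping models.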
